A study of Mus musculus with 9 samples.

Results

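The 37 mitochondrially encoded genes are all the rows of the deposited table that lie on the mitochondrial chromosome, out of 54532 genes in the table. They are 13 protein-coding genes, 2 rRNA genes and 22 tRNA genes, and they were chosen by position alone. The study sequenced 9 RNA libraries of 4T1, a line from a mouse mammary carcinoma, grown in high-glucose medium with serum. The Au_TCPP cells received Au/Cu-TCPP(Fe)-PEG, a material with gold and copper whose label gives a glucose-like oxidase state and consumed glutathione (GSH). The Cu_TCPP cells received Cu-TCPP(Fe)-PEG, the copper material without gold, labelled as GSH-consumed, and the Control cells received medium alone. Each group held 3 libraries, treatments lasted 24 h, and all 3 groups shared the cell line, the medium and the library kit. The sources used here give no doses. They do not say whether replicates were separate cultures either, so the p-values below reflect the spread among these 9 libraries, which may be technical.

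The mitochondrial genome is a small circle of DNA that a dedicated RNA polymerase, POLRMT, transcribes with the help of TFAM and TFB2M into long RNAs from both strands. Most protein and rRNA sequences are flanked by tRNAs, which are cut out at both ends to free the RNAs between them, and the messages are then tailed and kept stable by proteins such as LRPPRC. The proteins are core subunits of complexes I, III and IV of the respiratory chain and of the ATP synthase, while the rRNAs and tRNAs serve the mitochondrial ribosome that makes them. In mammals the light-strand message of ND6 is known to lack a long tail, and the rRNAs carry short tails, while the libraries here were made from polyadenylated RNA. Of the 37 genes, 28 lie on the plus strand of the reference and 9 on the minus strand, which are mt-Nd6 and 8 tRNA genes. The sources used here do not state whether counting used the strand, so sense and antisense RNA cannot be told apart.

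Total counts lay between 15477324 and 17494776 per library, and 182336 to 366329 of them fell on the mitochondrial genes. A filter on low counts left 13915 genes for testing, 21 of them mitochondrial: 12 protein-coding genes, both rRNA genes and 7 tRNA genes. The 16 mitochondrial genes that did not pass were mt-Atp8 and 15 tRNA genes, so every count of called genes below is out of 21 and not out of all 37. Called means an adjusted p under 0.05 in edgeR's quasi-likelihood test over all genes tested. Levels across groups are CPM scaled by TMM factors, as mean ± SD with n = 3, and levels between genes are the authors' FPKM, which divide by gene length. The 5 epithelial markers lay between 47.1 and 1729 CPM in every library. Of 10 markers of other cell types, Adgre1, Col3a1 and Pdgfrb were at 0 in all libraries, 5 reached at most 4 counts and Col1a1 at most 48 counts. The macrophage-associated Cd68 was above that, so the summed level of the 10 markers was 54.1 to 76.5 CPM in Au_TCPP, 9.80 to 14.7 CPM in Cu_TCPP and 28.3 to 30.8 CPM in Control, and its part in the results was not tested.

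Per length, mt-Co1, the catalytic subunit of complex IV, had the highest level of the rRNA and protein-coding genes in each group. Its FPKM averaged 6318 ± 2906 in Au_TCPP, 3622 ± 659 in Cu_TCPP and 3556 ± 35.9 in Control (SD, n = 3). Next came mt-Cytb, the subunit of complex III, with 2497 ± 698, 1837 ± 233 and 1576 ± 23.0 FPKM in the same order of groups, then mt-Nd1 with 1928 ± 584, 1707 ± 219 and 1342 ± 35.6 FPKM. The libraries of mt-Cytb and mt-Nd1 overlapped in Au_TCPP and in Cu_TCPP, and did not overlap in Control. mt-Atp8 was the lowest message in each group, and mt-Nd3 and mt-Nd4l averaged at most 20.5 FPKM in any group. mt-Co3 averaged 42.2 FPKM in Au_TCPP, 13.7 FPKM in Cu_TCPP and 13.4 FPKM in Control, next to mt-Nd3 and mt-Nd4l in the order of the last 2 groups. The levels of mt-Co2, mt-Co3, mt-Atp6, mt-Nd3 and mt-Nd4l are uncertain, because each has a near-identical copy in the nuclear genome, described below. The rRNA genes, as counted in polyadenylated RNA, changed place in the order. mt-Rnr1 had 373 ± 57.5 FPKM in Au_TCPP, rank 6 of the 15 genes, against 71.0 ± 14.3 FPKM and rank 8 in Cu_TCPP and 55.4 ± 4.72 FPKM and rank 10 in Control. Its libraries overlapped those of mt-Nd5, the next gene, in Au_TCPP and those of mt-Rnr2 in Cu_TCPP.

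**Figure D1:**
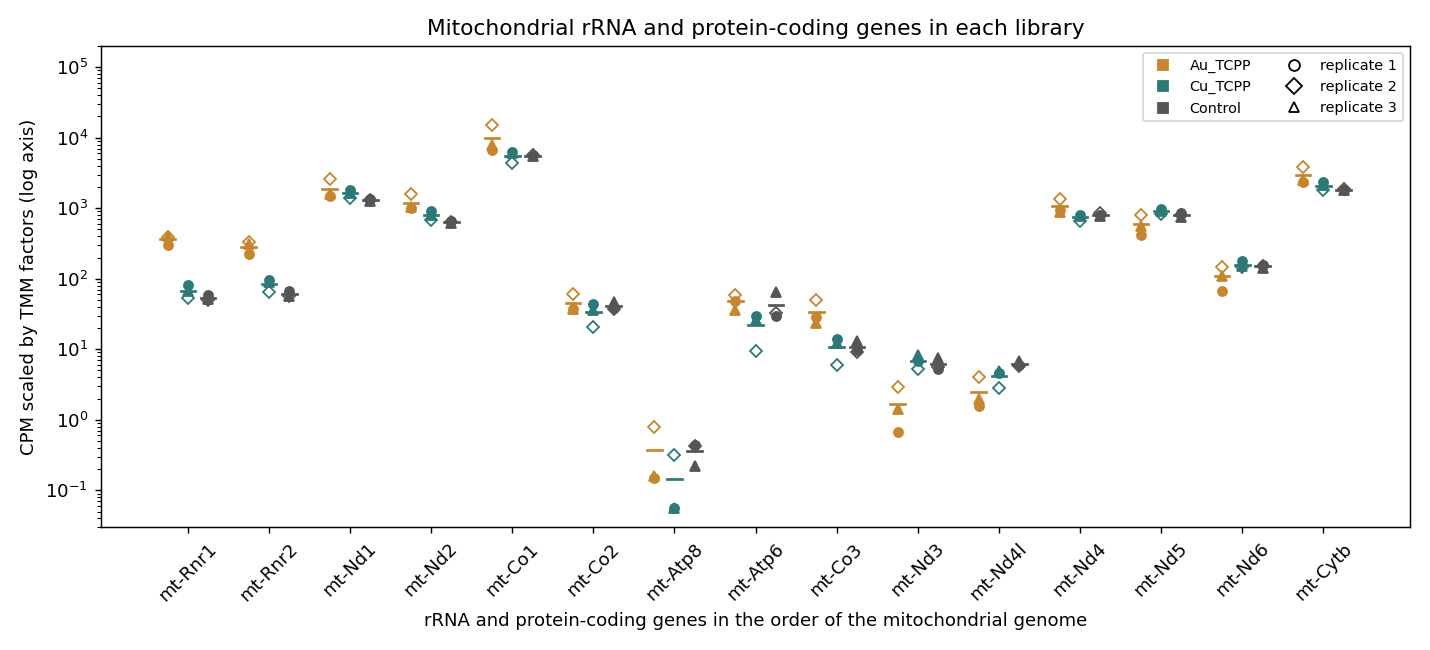
Level of each rRNA and protein-coding mitochondrial gene in CPM scaled by TMM factors (log axis), in the order of the genome, with 3 libraries per group (circle, diamond and triangle for replicates 1, 2 and 3) and the group mean as a bar. The Au_TCPP libraries of mt-Rnr1 lie between 299 and 401 CPM, above all Cu_TCPP and Control libraries, and the open diamond of Au_TCPP replicate 2 is the highest Au_TCPP library for most genes.

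Au_TCPP replicate 2 stood apart from the other libraries. The mitochondrial genes took 1.11%, 2.37% and 1.23% of all counts in Au_TCPP replicates 1, 2 and 3 (Wilson 95% interval 2.36 to 2.37% for replicate 2, covering counting error only). They took 1.47%, 1.09% and 1.36% in Cu_TCPP and 1.28%, 1.28% and 1.24% in Control. The groups overlapped, and neither Au_TCPP against Control (two-sided exact permutation p = 1.0) nor Au_TCPP against Cu_TCPP (exact p = 0.8) nor Cu_TCPP against Control (exact p = 0.8) showed a difference beyond the spread. With 3 libraries against 3 the smallest p this test can give is 0.1. The difference between Au_TCPP and Control was -0.0975 percentage points without Au_TCPP replicate 2 and 0.301 points with it. In bulk RNA, fewer cells of a kind and less RNA per cell cannot be told apart.

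The excess in replicate 2 ran through nearly all members. Of the 14 rRNA and protein-coding genes tested, 13 were highest in replicate 2 among the Au_TCPP libraries, and its CPM was 1.12 to 2.78 times the mean of replicates 1 and 3. The smallest ratio was that of mt-Rnr1 and the largest that of mt-Nd3. mt-Co1 alone had 89402, 211109 and 101453 counts in Au_TCPP replicates 1, 2 and 3, against 100709, 104986 and 100788 counts in Control. Results that rest on replicate 2 are given with and without it below.

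Au_TCPP against Control asks what the gold-bearing material changed relative to untreated cells. Of the 21 genes tested, 8 were higher, 6 were lower and 7 did not pass in Au_TCPP, which is 66.7% called, against 69.1% of all 13915 genes tested (34.4% higher and 34.7% lower). The share called was near that of all genes. Both rRNAs and 6 messages (mt-Nd1, mt-Nd2, mt-Co1, mt-Co3, mt-Nd4 and mt-Cytb) were higher, of which mt-Nd1, mt-Co1, mt-Nd4 and mt-Cytb were not called with library totals, where mt-Nd4 had the opposite sign. 3 messages (mt-Nd3, mt-Nd4l and mt-Nd5) and 3 tRNAs (mt-Th, mt-Ts2 and mt-Tl2) were lower. The median log2 fold change of the 21 genes was 0.16, beside -0.01 for all genes tested. When counts were scaled by library totals alone, the median of all genes was -0.43, and 4 members were higher and 9 lower. Fold changes below use TMM and are to be read against that shift. Without Au_TCPP replicate 2, 7 were higher and 10 lower of 22 tested.

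The rRNAs showed the largest rises of the 21 genes. Since the libraries were made from polyadenylated RNA and the rRNAs carry short tails, these are counts of captured rRNA and not its total level. mt-Rnr1, the 12S rRNA of the small subunit of the mitochondrial ribosome (chrM:70-1024, plus strand, mm10), had 299, 394 and 401 CPM in Au_TCPP, 80.6, 53.5 and 67.9 CPM in Cu_TCPP and 59.3, 50.5 and 51.8 CPM in Control. Every Au_TCPP library was higher than every other library, while Cu_TCPP and Control overlapped. The rise over Control was 6.77-fold (log2 fold change 2.76 ± 0.15 SE, adjusted p = 2.37e-09), and 2.68 on the log2 scale without Au_TCPP replicate 2. mt-Rnr2, the 16S rRNA of the large subunit (chrM:1094-2675, plus strand), had 223, 329 and 307 CPM in Au_TCPP, 96.3, 64.6 and 89.9 CPM in Cu_TCPP and 66.9, 56.6 and 56.4 CPM in Control. Again the Au_TCPP libraries lay above all others. mt-Rnr2 rose 4.77-fold over Control (log2 fold change 2.25 ± 0.16, adjusted p = 4.45e-08), and both rRNAs were called under all 19 alternatives run.

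Among the complex I messages, mt-Nd1 and mt-Nd2 are the first protein-coding genes downstream of the rRNAs and encode membrane-arm subunits. mt-Nd2 had 993, 1580.5 and 1033 CPM in Au_TCPP and 662, 646 and 618 CPM in Control. The groups did not overlap, and mt-Nd2 rose 1.87-fold (log2 fold change 0.90 ± 0.16, adjusted p = 0.000149), or 0.63 on the log2 scale without Au_TCPP replicate 2. mt-Nd1 had 1507, 2566 and 1596 CPM in Au_TCPP and 1340.2, 1319 and 1261 CPM in Control. It was 1.45-fold higher (log2 fold change 0.53 ± 0.17, adjusted p = 0.0129), a call that was lost with library totals (log2 fold change 0.13), with an offset for gene length (0.12) and without Control replicate 3 (0.48, adjusted p = 0.0519), and whose size was 0.22 (adjusted p = 0.0234) without Au_TCPP replicate 2. mt-Nd4, another membrane-arm subunit, averaged 1063 ± 261 CPM in Au_TCPP and 809 ± 30.9 CPM in Control. Its log2 fold change was 0.39 ± 0.14 (adjusted p = 0.0198) with TMM scaling, 0.15 (adjusted p = 0.0952) without Au_TCPP replicate 2, 0.07 (adjusted p = 0.635) with the offset for gene length and -0.01 with library totals, and its call was also lost without each of the Control libraries in turn (0.34 to 0.39, adjusted p = 0.0505 to 0.0846).

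mt-Nd3 and mt-Nd4l, small membrane subunits of complex I whose genes are parted by mt-Tr alone, went the other way. mt-Nd3 had 0.671, 2.91 and 1.42 CPM in Au_TCPP (9, 40 and 18 counts) and 5.22, 5.66 and 7.61 CPM in Control. mt-Nd4l had 1.57, 4.00 and 1.97 CPM in Au_TCPP and 5.99, 5.82 and 6.79 CPM in Control. No Au_TCPP library reached the lowest Control library for either gene. mt-Nd3 fell 3.66-fold (log2 fold change -1.87 ± 0.35, adjusted p = 0.000306) and mt-Nd4l 2.45-fold (-1.29 ± 0.30, adjusted p = 0.00134). Without Au_TCPP replicate 2 these were -2.59 and -1.83 on the log2 scale.

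mt-Nd5 and mt-Nd6 encode further complex I subunits on opposite strands, and their genes overlap by 14 bases at their 3′ ends. The last 30 bases of each gene are shown because both genes share the bases in capitals, from which a read cannot be given to one of them without strand. Sequences are from GENCODE M21 transcripts of the mm10 build, 5′ to 3′ on the strand of the gene; mt-Nd5 is on the plus strand at chrM:13536-13565 and mt-Nd6 on the minus strand at chrM:13552-13581.
3′ end of mt-Nd5: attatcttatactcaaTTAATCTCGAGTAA
3′ end of mt-Nd6: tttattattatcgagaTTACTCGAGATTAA
mt-Nd5 had 421, 809.8 and 556 CPM in Au_TCPP, against 842, 808 and 757 CPM in Control. Replicate 2 lay within the Control range and the other 2 libraries below it. mt-Nd5 fell 1.35-fold (log2 fold change -0.43 ± 0.18, adjusted p = 0.0451), and -0.74 (adjusted p = 3.11e-06) without replicate 2. The call was lost without Au_TCPP replicate 1 (-0.26, adjusted p = 0.12), Au_TCPP replicate 3 (-0.41), Control replicate 1 (-0.43), Control replicate 2 (-0.46) or Cu_TCPP replicate 3 (-0.43, adjusted p = 0.055), and in the 6 compared libraries alone (-0.44, adjusted p = 0.072). mt-Nd6 had 67.5, 148 and 111 CPM in Au_TCPP and 157, 150.0 and 143 CPM in Control, a log2 fold change of -0.46 ± 0.22 that did not pass (adjusted p = 0.0818). Without replicate 2 it was -0.78 (adjusted p = 0.00611). mt-Nd6 was also called lower with library totals (-0.87, adjusted p = 0.0135) and with the offset for gene length (-0.98, adjusted p = 0.00063). Its result was the same as in the main fit in 14 of the 19 alternatives. Since the use of strand in counting is not stated, RNA antisense to mt-Nd6 along the whole gene may be part of its counts.

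Outside complex I, mt-Cytb, the only mitochondrially encoded subunit of complex III, had 2369, 3893 and 2516 CPM in Au_TCPP and 1840.1, 1863 and 1799 CPM in Control. All Au_TCPP libraries lay above Control on this scale, with a log2 fold change of 0.67 ± 0.16 (adjusted p = 0.00178). The value was 0.39 (adjusted p = 0.000313) without Au_TCPP replicate 2, and the call was lost with library totals (0.27, adjusted p = 0.26) and with the offset for gene length (0.31, adjusted p = 0.0749).

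Complex IV has mt-Co1, mt-Co2 and mt-Co3 as its mitochondrially encoded core. mt-Co1 had 6669, 15354 and 7996 CPM in Au_TCPP and 5590.2, 5657 and 5519 CPM in Control. Replicate 2 was about double the other Au_TCPP libraries, and all 3 lay above Control on this scale. As a share of all counts the groups overlapped, with 0.545%, 1.36% and 0.634% in Au_TCPP and 0.625%, 0.631% and 0.613% in Control. The log2 fold change was 0.84 ± 0.29 (adjusted p = 0.0305) with replicate 2 and 0.37 (adjusted p = 0.0339) without it, and the call was lost with library totals (0.44, adjusted p = 0.265), with the offset for gene length (0.54), with no filter (0.78, adjusted p = 0.124), with the replicate block (0.80, adjusted p = 0.0654) and without any 1 of the Control libraries (0.80 to 0.82, adjusted p = 0.0705 to 0.0813). mt-Co3 had 28.3, 49.5 and 23.9 CPM in Au_TCPP, against 9.66, 9.27 and 13.1 CPM in Control. Its libraries did not overlap, and it rose 3.17-fold (log2 fold change 1.67 ± 0.35, adjusted p = 0.00222), or 1.26 on the log2 scale without Au_TCPP replicate 2. mt-Co2 averaged 45.4 ± 14.1 CPM in Au_TCPP and 40.7 ± 4.79 CPM in Control, and did not pass (log2 fold change 0.16 ± 0.29, adjusted p = 0.638).

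The ATP synthase genes mt-Atp8 and mt-Atp6 overlap on the same strand. The stretch around their overlap is shown because reads within the capitals belong to both genes, at chrM:7919-7977 on the plus strand (GENCODE M21, mm10).
mt-Atp8 and mt-Atp6 overlap: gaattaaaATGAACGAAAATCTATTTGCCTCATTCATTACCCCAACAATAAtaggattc
The overlap is 43 of the 204 bases of mt-Atp8. mt-Atp8 had 2, 11 and 2 counts in Au_TCPP, 1, 6 and 1 counts in Cu_TCPP and 8, 8 and 4 counts in Control, and was not tested. mt-Atp6 had 48.3, 58.8 and 36.5 CPM in Au_TCPP, 29.5, 9.44 and 26.3 CPM in Cu_TCPP and 29.7, 33.0 and 65.0 CPM in Control. Au_TCPP and Control overlapped (log2 fold change 0.17 ± 0.47, adjusted p = 0.765). It was 1.14 ± 0.49 on the log2 scale above Cu_TCPP, where the libraries did not overlap on this scale and the test did not pass (adjusted p = 0.0757).

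Of the 22 tRNA genes, 6 had no count in any library (mt-Tf, mt-Tv, mt-Tq, mt-Ts1, mt-Td and mt-Tt), which allows up to 3 counts in a library, or 0.171 to 0.194 CPM of its total, counting error only. Another 9 had at most 17 counts in a library and were not tested. The 7 that passed were mt-Tp, mt-Tl2, mt-Tn, mt-Tc, mt-Tl1, mt-Th and mt-Ts2. Neither full tRNAs nor precursors can be singled out in these counts. The sum over all tRNA genes was 111, 386 and 166 counts in Au_TCPP, 341, 380 and 326 in Cu_TCPP and 463, 438 and 485 in Control. Every Au_TCPP library lay below every Control library (two-sided exact permutation p = 0.1, the smallest possible), and Au_TCPP overlapped Cu_TCPP (exact p = 0.4). These sums are raw counts, not scaled between libraries. As a share of mitochondrial counts, the tRNA genes took 0.0609%, 0.105% and 0.0843% in Au_TCPP and 0.143%, 0.200% and 0.144% in Cu_TCPP. In Control they took 0.224%, 0.205% and 0.238%. By this share the 3 groups did not overlap (exact p = 0.1 for each pair).

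With TMM scaling of all 9 libraries the tRNA calls fell on 1 block. mt-Th, mt-Ts2 and mt-Tl2, the tRNAs for histidine, serine and leucine, lie next to each other between mt-Nd4 and mt-Nd5, with 1 base between the end of mt-Nd4 and mt-Th and none between mt-Tl2 and mt-Nd5. Their sequences are shown because they fill the space between these messages but for that 1 base (GENCODE M21, mm10, plus strand, no capitals). They lie at chrM:11546-11612, chrM:11613-11671 and chrM:11671-11741.
mt-Th: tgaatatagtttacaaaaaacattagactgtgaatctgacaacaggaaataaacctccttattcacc
mt-Ts2: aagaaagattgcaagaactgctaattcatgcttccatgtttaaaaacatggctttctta
mt-Tl2: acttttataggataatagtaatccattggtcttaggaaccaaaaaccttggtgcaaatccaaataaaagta
Together they had 1, 20 and 4 counts in Au_TCPP, 85, 149 and 84 in Cu_TCPP and 90, 99 and 122 in Control. The Au_TCPP libraries lay below all others, and 20 of their 25 counts were in replicate 2. Set against their downstream neighbour, they had 0.177, 1.80 and 0.567 counts per 1000 mt-Nd5 counts in Au_TCPP, 4.96, 9.51 and 5.26 in Cu_TCPP and 5.93, 6.60 and 8.82 in Control, again without overlap.

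Gene by gene, mt-Tl2 had 1, 11 and 4 counts in Au_TCPP and 51, 55 and 73 in Control, a log2 fold change of -3.00 ± 0.50 (adjusted p = 8.41e-05). mt-Th had 0, 5 and 0 counts in Au_TCPP and 29, 24 and 25 in Control (-3.43 ± 0.68, adjusted p = 0.000412), and mt-Ts2 had 0, 4 and 0 counts in Au_TCPP and 10, 20 and 24 in Control (-3.20 ± 0.75, adjusted p = 0.00159). Since mt-Th and mt-Ts2 had counts in replicate 2 alone of the Au_TCPP libraries, the size of their fall rests on that library. Without it both genes were at 0 in Au_TCPP, so that no fold is given (adjusted p = 6.26e-06 for mt-Th and 7.13e-05 for mt-Ts2), and mt-Tl2 was -4.06 on the log2 scale. All 3 calls held under every alternative run. The Au_TCPP counts of these 3 genes were too low to pass the filter by themselves. The genes were tested because of their Control and Cu_TCPP counts, so Au_TCPP could be called lower or not at all. The other 4 tRNAs tested did not pass. mt-Tp, the proline tRNA on the minus strand, had 6.56, 17.2 and 9.38 CPM in Au_TCPP and 13.6, 14.3 and 14.7 CPM in Control. Its log2 fold change was -0.36 ± 0.25 (adjusted p = 0.215), and -0.86 (adjusted p = 8.91e-05) without replicate 2, where mt-Tn (-1.62) and mt-Tc (-1.35) were called lower as well. mt-Tp and mt-Tn were also called lower with library totals (-0.76 and -1.26), with no filter (-0.42 and -0.90) and with the offset for gene length (-1.02 and -1.50). mt-Tl1 averaged 1.38 ± 1.14 CPM in Au_TCPP and 0.913 ± 0.231 CPM in Control (adjusted p = 0.273).

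**Figure D2:**
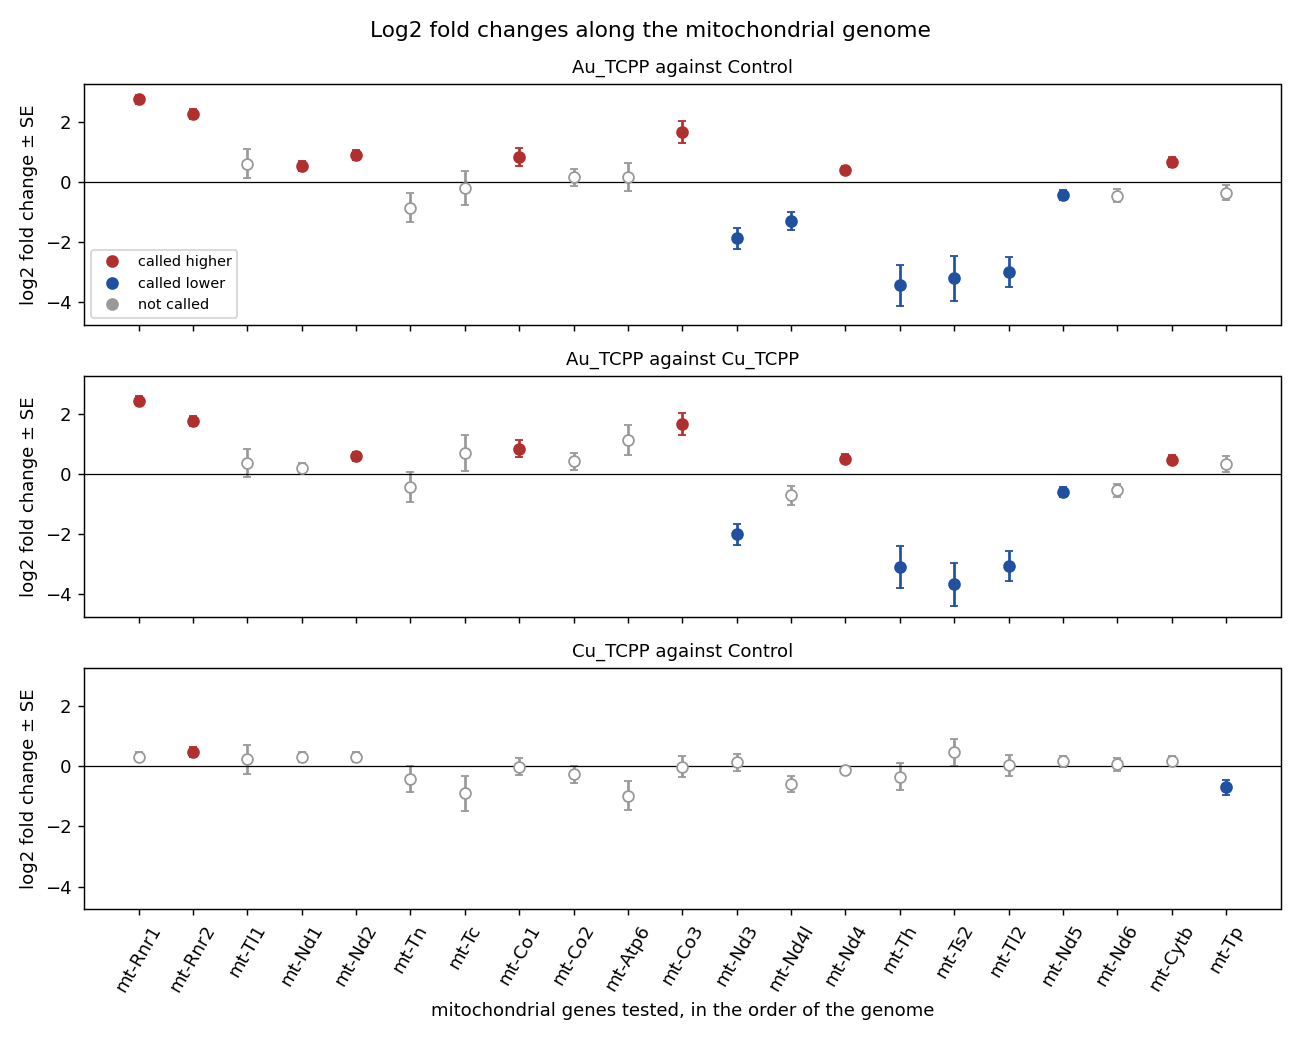
Log2 fold change ± SE of the 21 mitochondrial genes tested, in the order of the genome, for the 3 comparisons. Filled points were called (adjusted p under 0.05) and open points were not. The rRNAs stand highest at the left, and the block of mt-Th, mt-Ts2 and mt-Tl2 lies at -3.43 to -3.00 for Au_TCPP against Control.

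Au_TCPP against Cu_TCPP sets apart what the gold-bearing material changed relative to the copper material. The 2 comparisons share the Au_TCPP libraries, and those with Control share the Control libraries, so they are not independent of each other. Of the 21 genes, 7 were higher, 5 lower and 9 did not pass, which is 57.1% called, against 65.9% of all genes tested (34.6% higher and 31.3% lower). The median log2 fold change was 0.38, beside 0.04 for all genes. With library totals 3 were higher and 7 lower, beside a median of -0.33 for all genes, and without Au_TCPP replicate 2 these were 7 and 9.

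mt-Rnr1 was 5.42-fold higher in Au_TCPP (364.5 ± 57.0 CPM) than in Cu_TCPP (67.3 ± 13.6 CPM), with a log2 fold change of 2.44 ± 0.15 (adjusted p = 6.55e-09). mt-Rnr2 was 3.42-fold higher (286 ± 55.9 CPM in Au_TCPP, 83.6 ± 16.8 CPM in Cu_TCPP, log2 fold change 1.78 ± 0.16, adjusted p = 3.9e-07). No Au_TCPP library of either rRNA overlapped a Cu_TCPP library. Among the messages, mt-Co3 (1.67), mt-Co1 (0.85), mt-Nd2 (0.59), mt-Nd4 (0.52) and mt-Cytb (0.49) were higher on the log2 scale. Of these 5, mt-Co3 alone was called with library totals and with the offset for gene length. Without Au_TCPP replicate 2 the values of mt-Co1, mt-Nd2, mt-Nd4 and mt-Cytb were 0.36, 0.31, 0.26 and 0.19. mt-Co1 was also lost without Control replicate 1 (0.80), Cu_TCPP replicate 2 (0.66) or Cu_TCPP replicate 3 (0.91, adjusted p = 0.0534), with the replicate block (0.79, adjusted p = 0.0725), with no filter (0.77, adjusted p = 0.134) and in the 6 libraries alone (0.80, adjusted p = 0.0709). mt-Cytb was also lost without Cu_TCPP replicate 2 (0.34, adjusted p = 0.106) and in the 6 libraries alone (0.44, adjusted p = 0.0543).

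mt-Nd3 (1.67 ± 1.14 CPM in Au_TCPP, 6.76 ± 1.44 CPM in Cu_TCPP) was 4.01-fold lower, with a log2 fold change of -2.01 ± 0.35 (adjusted p = 0.000173). mt-Nd5 (596 ± 197 CPM in Au_TCPP, 901 ± 70.6 CPM in Cu_TCPP) was 1.51-fold lower, with a log2 fold change of -0.60 ± 0.18 (adjusted p = 0.00955). Neither gene's libraries overlapped. The tRNA block of mt-Th (-3.09), mt-Ts2 (-3.67) and mt-Tl2 (-3.04) was lower, as it was against Control, with the same limit from the filter on low counts. mt-Nd6 (-0.53 ± 0.22, adjusted p = 0.052) and mt-Nd4l (-0.70 ± 0.31, adjusted p = 0.056) lay at the threshold. Both were called without Au_TCPP replicate 2 (-0.86 and -1.25), and mt-Nd6 was called in 12 of the 19 alternatives and mt-Nd4l in 8. mt-Nd1 averaged 1889.7 ± 587 CPM in Au_TCPP and 1622 ± 208 CPM in Cu_TCPP, and did not pass (0.22 ± 0.17, adjusted p = 0.265).

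Cu_TCPP against Control asks what the copper material alone changed. Of the 21 genes, 1 was higher, 1 lower and 19 did not pass, so 9.52% were called, against 40.4% of all genes tested (19.2% higher and 21.2% lower). The median log2 fold change was 0.04, beside -0.01 for all genes. mt-Rnr2 averaged 83.6 ± 16.8 CPM in Cu_TCPP and 59.97 ± 6.04 CPM in Control, a log2 fold change of 0.48 ± 0.16 (adjusted p = 0.0287), and its libraries overlapped. mt-Tp averaged 8.78 ± 1.12 CPM in Cu_TCPP and 14.2 ± 0.550 CPM in Control, without overlap (log2 fold change -0.69 ± 0.25, adjusted p = 0.0405). Neither call held in all alternatives. With library totals mt-Rnr2 had 0.43 (adjusted p = 0.082) and mt-Tp -0.74 (adjusted p = 0.0559). mt-Rnr2 was also lost without Control replicate 2 (0.45), Control replicate 3 (0.45), Cu_TCPP replicate 1 (0.38), Cu_TCPP replicate 3 (0.43) or Au_TCPP replicate 2 (0.49, adjusted p = 0.0593). mt-Tp was lost without any 1 of the 6 libraries compared (-0.75 to -0.59, adjusted p = 0.0793 to 0.14).

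The number called in Cu_TCPP against Control differed with the libraries that were fitted. In a fit of the 6 Cu_TCPP and Control libraries alone, 5 mitochondrial genes were higher and 3 lower, and without Au_TCPP replicate 2 there were 4 and 2. Over all genes, 7381 and 7179 were called in these fits, against 5617 in the fit of all 9 libraries. mt-Nd1 (0.31 ± 0.17, adjusted p = 0.16) and mt-Nd2 (0.31 ± 0.15, adjusted p = 0.124) did not pass in the fit of all 9 libraries and were called in both of these (0.32 each, adjusted p = 0.00137 to 0.00371). mt-Nd1 had 1822, 1407 and 1636 CPM in Cu_TCPP and 1340.2, 1319 and 1261 CPM in Control, without overlap. On the lower side, mt-Nd4l (-0.59 ± 0.27, adjusted p = 0.0966) and mt-Atp6 (-0.97 ± 0.48, adjusted p = 0.157) did not overlap Control and did not pass. mt-Nd4l was called without Au_TCPP replicate 2 (-0.58, adjusted p = 0.0167). Both have a nuclear copy, described below. mt-Co1 averaged 5556 ± 1009 CPM in Cu_TCPP and 5589 ± 68.7 CPM in Control (-0.01 ± 0.29, adjusted p = 0.984).

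Shares within the mitochondrial counts do not depend on the scale between libraries. The rRNAs made up 3.84%, 2.71% and 4.56% of mitochondrial counts in Au_TCPP, 1.31%, 1.17% and 1.24% in Cu_TCPP and 1.10%, 0.931% and 0.969% in Control. The 3 groups did not overlap (two-sided exact permutation p = 0.1 for each pair, the smallest possible), and replicate 2 had the lowest rRNA share of the Au_TCPP libraries. The complex I genes together made up 28.8%, 24.3% and 27.0% in Au_TCPP, 34.8%, 36.98% and 33.5% in Cu_TCPP and 33.2%, 32.8% and 32.1% in Control. Au_TCPP lay below both other groups, and Cu_TCPP above Control (exact p = 0.1 each). Leaving mt-Nd5 and mt-Nd6 out of that sum, Au_TCPP (22.9 ± 2.26%) and Control (24.3 ± 0.295%) overlapped (exact p = 0.4), and so did Au_TCPP and Cu_TCPP (26.3 ± 1.06%, exact p = 0.2). mt-Co1 made up 52.7 ± 4.43% of mitochondrial counts in Au_TCPP, 45.7 ± 2.13% in Cu_TCPP and 49.1 ± 0.374% in Control. Au_TCPP and Cu_TCPP did not overlap (exact p = 0.1), whereas Au_TCPP and Control did (exact p = 0.3). The complex III share, from mt-Cytb alone, was 16.1 ± 1.41% in Au_TCPP, 17.3 ± 0.494% in Cu_TCPP and 16.1 ± 0.0722% in Control.

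Ratios between pairs of genes were chosen after their values were seen. mt-Nd5 over mt-Cytb was 0.178, 0.208 and 0.221 in Au_TCPP, 0.419, 0.462 and 0.420 in Cu_TCPP and 0.458, 0.434 and 0.421 in Control. Here replicate 2 lay between the other 2 Au_TCPP libraries, and the Au_TCPP mean was 2.16-fold below Control. mt-Nd6 over mt-Cytb was likewise lower, at 0.0369 ± 0.00780 in Au_TCPP, 0.0757 ± 0.00497 in Cu_TCPP and 0.0818 ± 0.00290 in Control. mt-Nd6 over mt-Nd5 was 0.181 ± 0.0194 in Au_TCPP and 0.187 ± 0.00202 in Control, and overlapped (exact p = 0.7). In both ratios the mt-Nd6 counts may include antisense RNA, as said above. mt-Nd5 over mt-Nd4, genes on the 2 sides of the tRNA block, was 0.556 ± 0.0898 in Au_TCPP, 1.22 ± 0.0428 in Cu_TCPP and 0.993 ± 0.0532 in Control, so Au_TCPP was lower and Cu_TCPP higher than Control without overlap.

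At the rRNA end of the genome, mt-Rnr1 over mt-Rnr2 was 1.34, 1.20 and 1.31 in Au_TCPP, 0.837, 0.828 and 0.755 in Cu_TCPP and 0.886, 0.892 and 0.918 in Control. The 3 groups did not overlap, with Cu_TCPP below Control. mt-Nd1 over mt-Nd2 was 1.52, 1.62 and 1.55 in Au_TCPP, 2.02, 2.05 and 2.04 in Cu_TCPP and 2.02, 2.04 and 2.04 in Control. Cu_TCPP and Control overlapped (exact p = 0.8) and lay between 2.02 and 2.05 in all 6 libraries, while Au_TCPP lay below them. mt-Nd4 over mt-Cytb was 0.366 ± 0.0227 in Au_TCPP, 0.356 ± 0.00957 in Cu_TCPP and 0.441 ± 0.0103 in Control. Both materials lay below Control and overlapped each other (exact p = 0.7). For each ratio said not to overlap between 2 groups, the exact p was 0.1, the smallest possible.

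**Figure D3:**
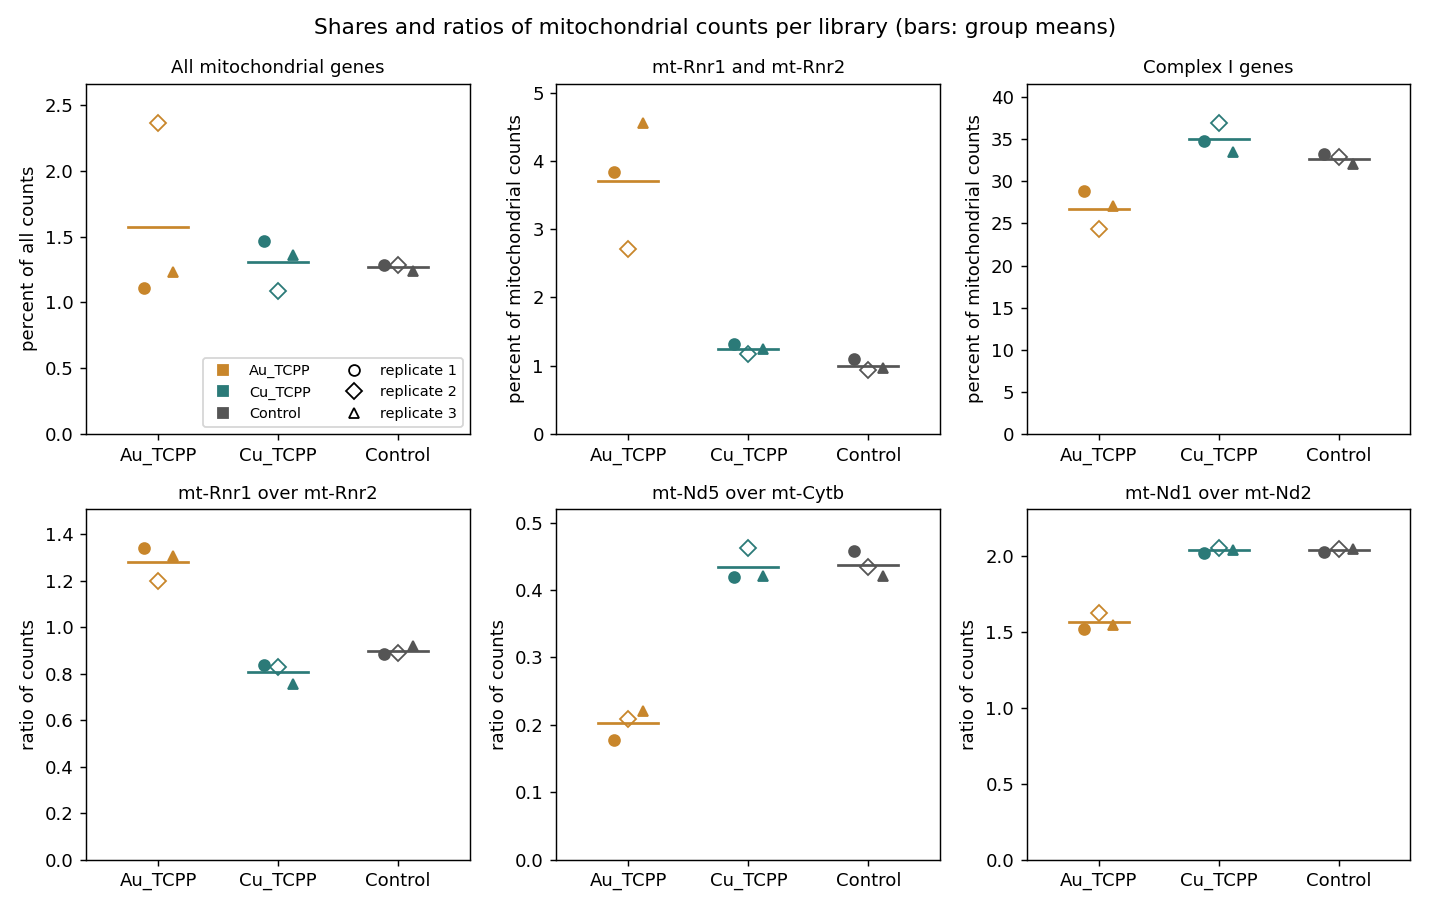
Shares of counts (percent) and ratios of counts between genes in each of the 9 libraries, with the group mean as a bar and all axes from 0. The mitochondrial share separates Au_TCPP replicate 2 (2.37%) from the other 8 libraries, whereas in the ratios of mt-Rnr1 to mt-Rnr2, mt-Nd5 to mt-Cytb and mt-Nd1 to mt-Nd2 the 3 Au_TCPP libraries lie together, apart from Cu_TCPP and Control.

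7 of the protein-coding genes have a near-identical annotated copy in the nuclear genome, a stretch of mitochondrial sequence on chromosome 1 (24611535 to 24616197, minus strand, mm10) annotated as unprocessed pseudogenes. Only annotated genes of this stretch were aligned. The space between Gm28661 and Gm10925, the copies of mt-Co2 and mt-Atp6, was not aligned. Since mt-Atp8 lies between these 2 genes on the mitochondrial genome, a copy of it was not looked for. Of the 7 copies, 5 matched the mitochondrial gene in every aligned base and 2 differed at 1 base. The differing places are shown because they are the only differences within the aligned bases (483 of the 492 bases of Gm29216), with the differing base in capitals (GENCODE M21, mm10). mt-Nd3 is at chrM:9459-9476 and Gm28438 at chr1:24613102-24613119, and the difference is T3C, counted from the first base of mt-Nd3. mt-Co1 is at chrM:6390-6408 and Gm29216 at chr1:24616170-24616188, and the difference is A1066T, counted from the first base of mt-Co1. The mitochondrial genes are on the plus strand and the copies on the minus strand.
mt-Nd3: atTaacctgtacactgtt
Gm28438: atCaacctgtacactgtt
mt-Co1: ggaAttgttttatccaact
Gm29216: ggaTttgttttatccaact

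Which of these reads came from which copy cannot be settled from counts, so levels of the genes with a long copy are uncertain. The copy took 55.9 to 72.7% of the counts of both for mt-Nd3 (Gm28438), 39.4 to 63.1% for mt-Co3 (Gm28437), 33.1 to 50.7% for mt-Atp6 (Gm10925), 32.9 to 44.6% for mt-Co2 (Gm28661) and 18.2 to 48.8% for mt-Nd4l (Gm10222). For mt-Nd4 (Gm28439) it took 0.386 to 1.15%, although its 876 aligned bases were identical and covered 63.6% of the gene. For mt-Co1 it took 0.0892 to 0.273%, and Gm29216 covers 31.3% of that gene. The 5 genes with a copy along nearly their whole length all lay below mt-Nd6 in the FPKM order of every group. The rRNAs, mt-Nd1, mt-Nd2, mt-Nd5, mt-Nd6 and mt-Cytb had no copy among the genes aligned. They carried the ratios above with the exception of those with mt-Nd4. Copies of them elsewhere in the nuclear genome were not looked for.

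Gene and copy were both called in 5 of the 7 pairs in Au_TCPP against Control, and had the same sign in all but 1 of them. Gm28438 averaged 3.87 ± 2.80 CPM in Au_TCPP and 10.5 ± 0.850 CPM in Control (log2 fold change -1.44 ± 0.33, adjusted p = 0.0019), as mt-Nd3 was lower. Gm10222 was lower (-1.15 ± 0.45, adjusted p = 0.0348), as was mt-Nd4l. Gm28437 was higher (0.73 ± 0.20, adjusted p = 0.00501), as was mt-Co3, and so was Gm29216 (1.24 ± 0.39, adjusted p = 0.018), as was mt-Co1. Gm28439 was the exception. It was lower (-0.75 ± 0.26, adjusted p = 0.0208) where mt-Nd4 was called higher with TMM scaling. With the counts of each copy added to its gene, the same numbers were called in the 3 comparisons, and the log2 fold changes for Au_TCPP against Control were -1.585 for mt-Nd3, 1.19 for mt-Co3 and -1.24 for mt-Nd4l.

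**Figure D4:**
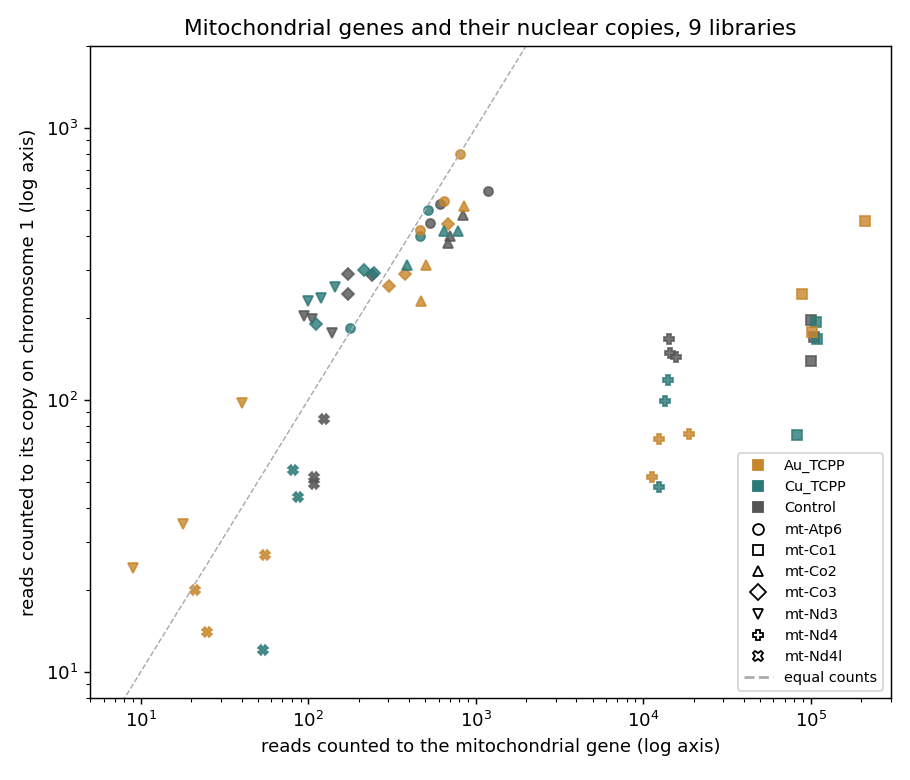
Reads counted to the chromosome 1 copy against reads counted to the mitochondrial gene (both log axes), for 7 genes in 9 libraries, with equal counts as a dashed line. mt-Nd3, mt-Nd4l, mt-Co2, mt-Co3 and mt-Atp6 lie near the line, while mt-Nd4 and mt-Co1 lie far to its right with at most 1.15% of the reads on the copy.

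mt-Nd4l and mt-Nd4 are read from 1 message and overlap by 7 bases, shown in capitals because the start of mt-Nd4 lies in them (chrM:10159-10181, plus strand, GENCODE M21, mm10).
mt-Nd4l and mt-Nd4 overlap: ctactacaATGCTAAaaattatt
Although the genes adjoin, mt-Nd4l fell and mt-Nd4 did not fall in Au_TCPP against Control. Per length they differed widely in every group, at 8.25 ± 4.22 FPKM for mt-Nd4l and 753 ± 179 FPKM for mt-Nd4 in Au_TCPP and 20.5 ± 1.80 and 577 ± 21.2 FPKM in Control. Gm10222 took at most 48.8% of the reads counted to itself and mt-Nd4l. The treatment of reads with several matches is not stated, and reads counted to neither gene are not in this share. What part the copy has in the low level of mt-Nd4l was not tested.

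The nuclear genes that serve mitochondrial DNA and RNA were followed in 5 lists. Of 16 transcription genes, 4 were higher, 8 lower and 4 did not pass in Au_TCPP against Control (75% called, beside 69.1% of all genes), with a median log2 fold change of -0.37. With library totals these were 3 and 11. Against Cu_TCPP 3 were higher and 9 lower (75% called, beside 65.9% of all genes), with a median of -0.50. In Cu_TCPP against Control 8 were higher and 2 lower (62.5% called, beside 40.4%), with a median of 0.29. Polrmt, the mitochondrial RNA polymerase, had 6.49, 14.0 and 8.51 CPM in Au_TCPP, 41.3, 43.5 and 39.2 CPM in Cu_TCPP and 37.02, 39.0 and 39.4 CPM in Control. All Au_TCPP libraries lay far below the others, with replicate 2 the highest of them. Its log2 fold change was -1.99 ± 0.19 against Control (adjusted p = 5.44e-07) and -2.09 ± 0.19 against Cu_TCPP (adjusted p = 3.62e-07), and 0.10 ± 0.17 for Cu_TCPP against Control (adjusted p = 0.652).

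The other basal factors did not share this direction. Tfb2m, which helps the polymerase open the promoter, was 59.4 ± 11.99 CPM in Au_TCPP, 25.1 ± 1.25 CPM in Cu_TCPP and 20.4 ± 1.54 CPM in Control (log2 fold change 1.54 ± 0.13 against Control, adjusted p = 9.44e-08). Tfam, which packages the DNA and activates its promoters, was 66.3 ± 10.3 CPM in Au_TCPP, 65.2 ± 1.23 CPM in Cu_TCPP and 48.0 ± 2.20 CPM in Control. It was higher than Control in both groups (0.47 in Au_TCPP, adjusted p = 0.00106, and 0.44 in Cu_TCPP, adjusted p = 0.00354). With library totals its Au_TCPP value was 0.04 and did not pass. Of the coactivators, Pprc1 was 31.5 ± 5.13 CPM in Au_TCPP, 156 ± 4.12 CPM in Cu_TCPP and 59.3 ± 5.17 CPM in Control, so it was lower with Au_TCPP (-0.91, adjusted p = 3.42e-06) and higher with Cu_TCPP (1.40, adjusted p = 4.4e-07). Ppargc1b was likewise lower with Au_TCPP (-1.33) and higher with Cu_TCPP (0.52, adjusted p = 0.032), the second of which was lost with library totals (0.47, adjusted p = 0.0649) and without any 1 of the 6 Cu_TCPP and Control libraries (0.46 to 0.57, adjusted p = 0.0539 to 0.104).

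Of 21 genes of RNA processing, tailing and decay, 10 were higher and 6 lower in Au_TCPP against Control (76.2% called, beside 69.1% of all genes, median 0.27), a split that turned with library totals to 3 higher and 8 lower (median -0.15). Against Cu_TCPP 5 were higher and 9 lower (66.7% called, near the 65.9% of all genes). In Cu_TCPP against Control 12 were higher and 1 lower (61.9% called, beside 40.4%, median 0.29). Trmt10c, a subunit of the mitochondrial RNase P that cuts the 5′ ends of tRNAs, was 113 ± 8.62 CPM in Au_TCPP, 39.7 ± 4.46 CPM in Cu_TCPP and 25.4 ± 1.97 CPM in Control. It rose in both (2.15 ± 0.10 in Au_TCPP, adjusted p = 4.91e-10, and 0.64 ± 0.10 in Cu_TCPP, adjusted p = 0.000247). 1110008L16Rik, the gene of the catalytic subunit of that enzyme, was lower with Au_TCPP (8.06 ± 1.04 CPM, against 12.7 ± 1.60 CPM in Control, -0.66, adjusted p = 0.00113), and Elac2, which cuts the 3′ ends, was lower as well (-0.37, adjusted p = 0.0169). Hsd17b10 of the same list lay above Control without overlap on this scale (119, 105 and 108 CPM in Au_TCPP, 76.9, 80.8 and 79.4 CPM in Control). Its log2 fold change ranged from 0.06 to 0.50 over the 19 alternatives. Lrpprc, which keeps the messages stable, was 72.8 ± 5.95 CPM in Au_TCPP, 121 ± 4.76 CPM in Cu_TCPP and 102 ± 2.53 CPM in Control. It fell with Au_TCPP (-0.49, adjusted p = 9.34e-05) and rose with Cu_TCPP (0.25, adjusted p = 0.0239). The Au_TCPP call was lost with the offset for gene length (-0.14, adjusted p = 0.126), and the Cu_TCPP call without any 1 of the Control libraries or without Cu_TCPP replicate 1 or 3 (0.23 to 0.28, adjusted p = 0.0501 to 0.092). Grsf1, of the RNA granules, rose with Au_TCPP (0.88, adjusted p = 1.96e-07), and Fastkd1, an RNA-binding protein, fell (-1.70, adjusted p = 8.16e-07).

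**Figure D5:**
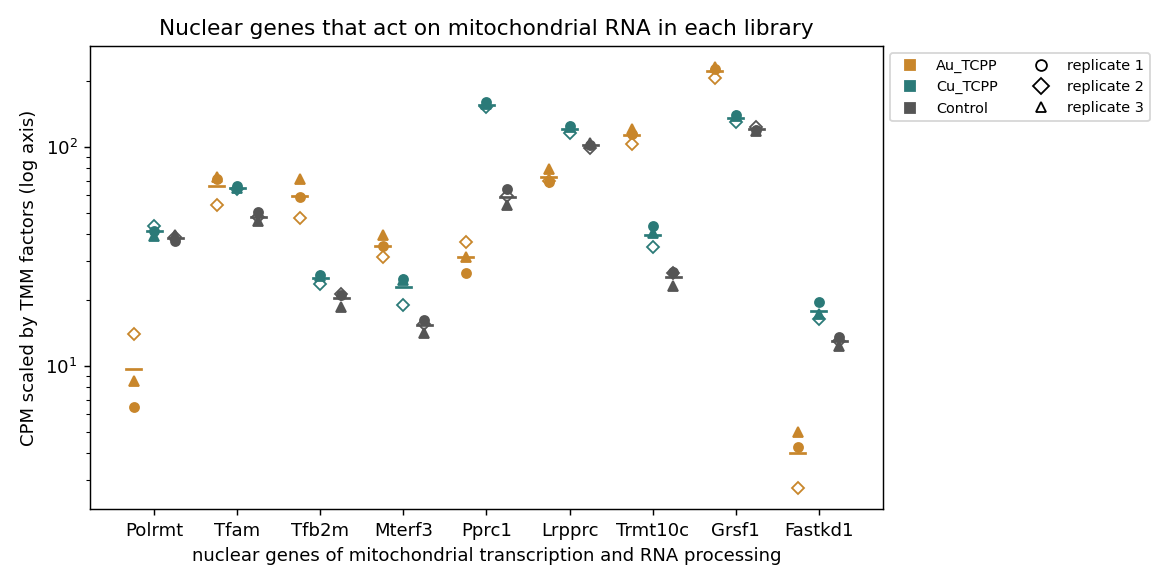
Level in CPM scaled by TMM factors (log axis) of 9 nuclear genes of mitochondrial transcription and RNA processing in each library, with group means as bars. Polrmt and Fastkd1 lie lowest in Au_TCPP, Trmt10c, Tfb2m and Grsf1 highest, and Pprc1 is highest in Cu_TCPP (156 CPM) and lowest in Au_TCPP (31.5 CPM).

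Of 13 genes of mitochondrial DNA replication and nucleotide supply, 3 were higher and 7 lower in Au_TCPP against Control (76.9% called, beside 69.1% of all genes, median -0.30; 2 and 9 with library totals), and 7 higher and 1 lower in Cu_TCPP against Control (61.5% called, beside 40.4%, median 0.41). Polg, the catalytic subunit of the DNA polymerase, was 31.4 ± 3.27 CPM in Au_TCPP and 62.7 ± 2.84 CPM in Control (-0.9996, adjusted p = 2.28e-07), and Lig3, the DNA ligase, was 27.2 ± 1.67 CPM in Au_TCPP and 63.8 ± 2.38 CPM in Control (-1.23, adjusted p = 1.14e-08). Lig3 rose with Cu_TCPP (0.44, adjusted p = 0.000588), whereas Polg did not pass there (0.22, adjusted p = 0.0592). Ssbp1, the single-stranded DNA-binding protein, rose in both groups (0.87 in Au_TCPP, adjusted p = 7.1e-06, and 0.49 in Cu_TCPP, adjusted p = 0.00303).

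Of 16 genes that modify mitochondrial rRNA and tRNA, 4 were higher and 6 lower in Au_TCPP against Control (62.5% called, beside 69.1% of all genes, median -0.15; 0 and 11 with library totals), and 4 higher and none lower in Cu_TCPP against Control (25% called, beside 40.4%, median 0.09). Mrm2, which methylates the 16S rRNA, was 1.91 ± 1.05 CPM in Au_TCPP and 5.98 ± 0.602 CPM in Control (-1.63, adjusted p = 0.000102). Nsun3, a methyltransferase of the methionine tRNA, was 3.77 ± 0.785 CPM in Au_TCPP and 8.39 ± 0.262 CPM in Control (-1.15, adjusted p = 2.7e-05). Of 12 mitochondrial translation factors, 2 were higher and 4 lower in Au_TCPP against Control (50% called, beside 69.1% of all genes, median -0.25; 1 and 10 with library totals), and 2 higher and 1 lower in Cu_TCPP against Control (25% called, beside 40.4%). Mtrf1l, a release factor, rose with Au_TCPP (17.3 ± 0.452 CPM, against 7.13 ± 1.43 CPM in Control, 1.28, adjusted p = 2.87e-06), and Mtfmt, which formylates the initiator tRNA, fell (9.65 ± 2.85 CPM, against 19.8 ± 1.05 CPM in Control, -1.03, adjusted p = 0.000121). Whether these nuclear genes bear on the mitochondrial ones was not tested.

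In the authors' deposited table, the adjusted p was under 0.05 for 13 of the 21 genes in Au_TCPP against Control, all of which were among the 14 called here. For Au_TCPP against Cu_TCPP the authors' deposited table had 12, of which 11 were among the 12 called here, and for Cu_TCPP against Control it had 8, which included both called here. The sign of the fold change in the authors' deposited table was the same for 21, 21 and 19 of the 21 genes. The gene called here that the authors' deposited table does not have under 0.05 in Au_TCPP against Control was mt-Co1, with a log2 fold change of 0.82 and an adjusted p of 0.0625 there.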

How the data were processed

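Polyadenylated RNA was sequenced in 9 libraries made with a QIAseq FX kit for single-cell RNA, per the labels' protocols, and the titles give the 3 groups. HTSeq (no version), Cufflinks 2.1.1, Bowtie 0.12.9 and the mm10 build are named in the submitters' processing notes. The treatment of reads with several matches, or of strand, is not stated there. Raw read counts are in the deposited table for every gene and library, per the file headers. The same table holds FPKM values, which the authors scaled by length and depth, per the file headers. The authors also deposited log2 fold changes and p-values, raw and adjusted, per the file headers, from a test that is not stated; their group means were not used.

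The test was edgeR's (4.0.16, under R 4.3.3) robust quasi-likelihood F-test. All 9 libraries entered it with TMM scaling, after filterByExpr, and p-values were adjusted by Benjamini-Hochberg over 13915 genes. The common dispersion of 0.0112 corresponds to a coefficient of variation of 10.6% between libraries. Standard errors are the absolute log2 fold change divided by the square root of F. The fit was tested on simulated data with few changed genes, balanced in direction, and a common dispersion. That setting does not cover changes as wide as those called here or a library that stands apart. Shares and ratios were compared by two-sided exact permutation tests over libraries. Nuclear copies were aligned with blastn 2.17.0 (e-value 1e-20), and all 37 genes had the same coordinates in GENCODE M21. Alternatives were RLE factors, library totals, TMM without mitochondrial genes, no filter, a filter of 1 CPM in any 3, DESeq2 1.42.0, a fit to only the 6 libraries compared, a replicate block and leaving out each library. Adding the nuclear copies to their genes and an offset for gene length (spline with 5 degrees of freedom) were chosen after seeing the data. The rule for named genes took all protein-coding and rRNA members, the tRNA members that passed the filter and those of the 3 highest sums, up to 4 called genes per list and comparison, and Polrmt, Tfam and Lrpprc. The ratios between genes, the copy Gm10222, and the examples 1110008L16Rik and Elac2 were chosen after values were seen. The members, lists and alternatives were chosen with earlier results of these data known. Tables were handled in Python 3.11.15 using scipy 1.17.1, numpy 2.4.6 and pandas 2.3.3; matplotlib 3.10.9 drew the figures. One marker of the fixed list is not reported here.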

Additional observations from a re-analysis of the deposited data

How the results depend on the processing

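Of the genes called, 9 of 14 in Au_TCPP against Control passed in all 19 alternatives (both rRNAs, mt-Nd2, mt-Co3, mt-Nd3, mt-Nd4l, mt-Th, mt-Ts2 and mt-Tl2), 8 of 12 in Au_TCPP against Cu_TCPP and 0 of 2 in Cu_TCPP against Control. Of these genes, mt-Co3, mt-Nd3 and mt-Nd4l have a nuclear copy along nearly their whole length. No alternative changed how reads with several matches were counted, so their calls keep that uncertainty. The count of 14 ranged from 11 to 17, and the count of 12 from 11 to 16, when 1 library was left out. The count of 2 in Cu_TCPP against Control was 0 with library totals, 6 with no filter on low counts, 8 in the 6 libraries alone, 4 with the offset for gene length, and 0 to 6 when 1 library was left out. Replicate numbers did not pair the libraries: same-numbered libraries correlated at -0.0846 to 0.0897, 0 of 9 pairs above 0.1, and with the replicate block the counts were 13, 11 and 2 for Au_TCPP against Control, Au_TCPP against Cu_TCPP and Cu_TCPP against Control. The difference in mitochondrial share, in percentage points, ranged over libraries left out from -0.0975 to 0.530 (Au_TCPP against Control), -0.134 to 0.493 (Au_TCPP against Cu_TCPP) and -0.0432 to 0.145 (Cu_TCPP against Control), with the lowest value without Au_TCPP replicate 2 in the first and second and without Cu_TCPP replicate 1 in the last. The complex III share in Au_TCPP against Control was -0.0387 points, 0.402 of protein-coding counts alone, and -0.708 to 0.695 when 1 library was left out. With library totals, log2 fold changes of called genes changed sign for mt-Nd4 (-0.0135), Gfm1 (-0.0914), Tbrg4 (-0.0120), Pus1 (-0.169) and Mrm3 (-0.0162) in Au_TCPP against Control and for Hsd17b10 (-0.0542), Primpol (-0.136), Mgme1 (-0.0731) and Mrrf (-0.0582) in Au_TCPP against Cu_TCPP, and genes not called became called on the other side for Mrrf (-0.41, Au_TCPP against Control) and Tfam (-0.36, Au_TCPP against Cu_TCPP). Library totals shift every gene of a library by the same factor. With the offset for gene length, Nrf1 was 0.36 in Au_TCPP against Control and Hsd17b10 -0.10 in Au_TCPP against Cu_TCPP; the cause was not tested. At these depths, mt-Atp8 and 15 tRNA genes had too few counts to be tested.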
